A study of Homo sapiens with 12 samples.

Results

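The mitochondrial ribosomal proteins of A549 cells were followed at the mRNA level in 12 RNA-seq libraries, over an NR0B1 overexpression arm and an NR0B1 knockdown arm. Members were all genes with Ensembl transcript rows whose symbol starts with MRPL or MRPS and a number, at 1 FPKM or more in at least 3 libraries. All 78 matching symbols met this, of 11908 genes in the table that passed the same filter. The rule used levels only and no difference between groups. Of the 78, 26 code for proteins of the small subunit and 51 for proteins of the large subunit. MRPS18A and MRPS30 are counted with the large subunit, where their proteins sit despite the symbols. MRPS36 keeps a ribosomal symbol but is now known as a subunit of the oxoglutarate dehydrogenase complex.

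A549 is a human lung adenocarcinoma line, given in the labels as non-small cell lung cancer. NR0B1 (DAX1) is a nuclear receptor without a known ligand, known mainly as a transcriptional repressor. The 4 groups had 3 libraries each and no added treatment. NR0B1 overexpression (NR0B1 OE) had its own wild-type control (OE control). An shRNA against NR0B1 (NR0B1 KD) also had its own wild-type control, labelled shNC (KD control). The labels name neither the vector, clone, passage nor batch of a library, nor whether replicates were separate cultures, so p-values measure the spread between these libraries only.

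Mitochondria make proteins on their own ribosome, which descends from a bacterial one. Its RNA is transcribed from mitochondrial DNA, but its proteins are all coded in the nucleus, made in the cytosol and imported. The small subunit reads the mRNA and the large subunit joins amino acids, and in human cells the products are the hydrophobic core subunits of the respiratory chain and ATP synthase. Under the current naming, 46 members keep a bacterial counterpart and 31 are specific to mitochondria. The members lie on 21 chromosomes.

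Libraries held 15049011 to 22797076 expected counts, the fractional read counts deposited by the authors. NR0B1 itself had 98.9, 81.8 and 84.1 CPM (counts scaled to library size) in NR0B1 OE libraries, against 17.9, 60.1 and 55.2 CPM in OE control libraries, a log2 fold change of 0.99 that missed the threshold (adjusted p = 0.0912). It had 2.99, 3.31 and 5.84 CPM in NR0B1 KD libraries, against 16.3, 21.1 and 13.3 CPM in KD control libraries (log2 fold change -2.06, adjusted p = 0.00593). The controls also differed in NR0B1, which was called higher in the OE control than in the KD control (log2 fold change 1.40, adjusted p = 0.0189). Their libraries overlapped, and this difference was larger than that of the overexpression arm. OE control 1 and NR0B1 KD 2 stood apart from their replicates, with correlations of log2 CPM of 0.9345 to 0.9396 and 0.9004 to 0.9231, against 0.9589 to 0.9796 for all other pairs of replicates. The 5 epithelial markers summed to 2038.95 to 2946.34 FPKM in NR0B1 OE libraries, 2319.8 to 2584.63 FPKM in OE control libraries, 1256.52 to 2770.8 FPKM in NR0B1 KD libraries and 2482.38 to 2952.85 FPKM in KD control libraries. In the knockdown 3 of the 5 rose, EPCAM by 1.74, KRT19 by 1.44 and CDH1 by 0.48 on the log2 scale. The other 2, KRT8 and KRT18, had negative values and were not called. With overexpression CDH1, which fell by 1.01, was the 1 marker called, and 3 of the 5 were positive and 2 negative. The 3 leukocyte markers summed to 1.36 to 1.84 FPKM in NR0B1 OE libraries, 4.0 to 4.46 in OE control libraries, 1.55 to 3.93 in NR0B1 KD libraries and 0.42 to 0.79 in KD control libraries. CD3E was at 0 in every library and PTPRC at 0.01 FPKM or less, so the sum was almost all CD14, whose log2 fold change was -1.42 with overexpression and 2.04 in the knockdown, called in both. The 3 endothelial markers summed to at most 0.28 FPKM and the 3 fibroblast markers to at most 0.77 FPKM. The part of the markers that moved in the members' changes was not tested. In bulk RNA, fewer cells of a kind and less RNA per cell cannot be told apart.

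The members were expressed at moderate levels. FPKM scales reads to transcript length and library size, so it can be set side by side between genes. Mean FPKM over the 12 libraries ran over a 19.8-fold range, with quartiles of 14.8, 19.7 and 29.6. The median was 21.3 FPKM for the small subunit and 19.7 FPKM for the large subunit. MRPS24, a small-subunit protein, was highest with a mean of 70.98 FPKM, followed by MRPS35, of the same subunit, at 66.16 FPKM. MRPL3, a large-subunit protein known in bacteria to reach towards the peptidyl transferase centre, came next at 65.20 FPKM. The ranges of these 3 genes over the libraries overlapped, from 62.61 to 87.73 FPKM for MRPS24, 51.41 to 82.31 FPKM for MRPS35 and 39.80 to 89.57 FPKM for MRPL3, so their order is not firm. At the low end stood MRPL1, the protein of the mobile L1 stalk, with a mean of 3.59 FPKM. MRPS36 followed at 4.58 FPKM, and MRPL57 at 5.02 FPKM. MRPL1 was also the gene nearest to the threshold for membership, at 0.93 FPKM in OE control 2, and 77 members reached 1 FPKM in every library.

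**Figure D1:**
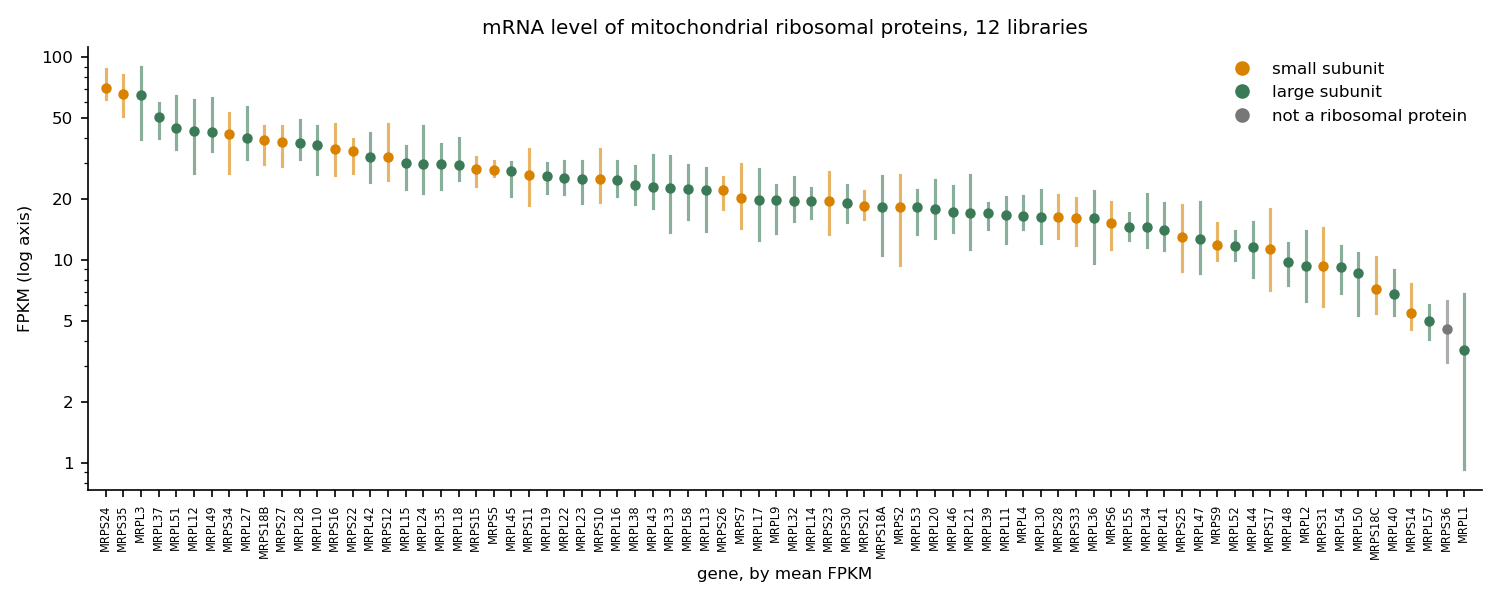
Mean FPKM over 12 libraries (points, log axis) and lowest to highest library (lines) for each of the 78 genes, coloured by subunit. Small and large subunit genes are mixed along the whole range, from MRPS24 at 70.98 FPKM to MRPL1 at 3.59 FPKM.

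Levels varied little between libraries. The SD of log2 CPM over the 12 libraries had a median of 0.233 for the members, 0.353 for all genes tested and 0.317 for the 8572 genes within the members' range of mean FPKM. Within groups the medians were 0.181 for the members, 0.232 for all genes and 0.205 for the genes within that range. The genes within the range were not matched on level: their median mean FPKM was 13.1, against 19.7 for the members. MRPS5, a small-subunit protein at the mRNA entrance in bacteria, varied least. It had 55.8, 59.5 and 54.3 CPM in NR0B1 OE libraries and 55.3, 61.2 and 64.0 CPM in OE control libraries. It had 60.7, 51.7 and 58.6 CPM in NR0B1 KD libraries and 53.1, 51.8 and 51.7 CPM in KD control libraries. Both pairs of groups overlapped, and the highest library was 1.24 times the lowest. MRPL39 and MRPL19, of the large subunit, came next, with highest libraries 1.29 and 1.38 times the lowest. MRPL1 varied most, 5.69-fold, at levels of 1.69 to 9.62 CPM, and its within-group SD of 0.522 log2 units was almost as large as its SD over all libraries, 0.578. MRPL33, MRPL17, MRPL12 and MRPS31 followed with SDs of 0.416, 0.389, 0.385 and 0.378. For MRPS31 the SD within groups was only 0.158, so most of its spread lay between groups.

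Summed over the members, NR0B1 OE libraries held 1810.7, 1697.0 and 1801.5 FPKM, against 1663.9, 1752.2 and 1755.2 FPKM in OE control libraries. As a share of the FPKM of all genes this was 0.484% ± 0.0142 with NR0B1 OE and 0.457% ± 0.009 in the OE control (SD, n = 3 each). The shares did not overlap, since the lowest NR0B1 OE library had 0.468% and the highest OE control library 0.466%, but that gap was smaller than the spread within either group. NR0B1 KD libraries held 1825.4, 1557.1 and 2048.0 FPKM, against 2056.7, 2010.7 and 2028.7 FPKM in KD control libraries. Their shares were 0.478% ± 0.0423 with NR0B1 KD and 0.536% ± 0.01 in the KD control (SD, n = 3 each). The summed FPKM overlapped and the shares did not, but the highest NR0B1 KD library had 0.525% and the lowest KD control library 0.528%, a gap smaller than the spread within either group. The NR0B1 KD libraries differed among themselves. For 63 of 78 members NR0B1 KD 2 was the lowest of the 3, and for 54 members NR0B1 KD 3 was the highest. The median member stood -0.245 log2 units from its own 12-library mean in NR0B1 KD 2 and 0.141 units from it in NR0B1 KD 3.

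**Figure D2:**
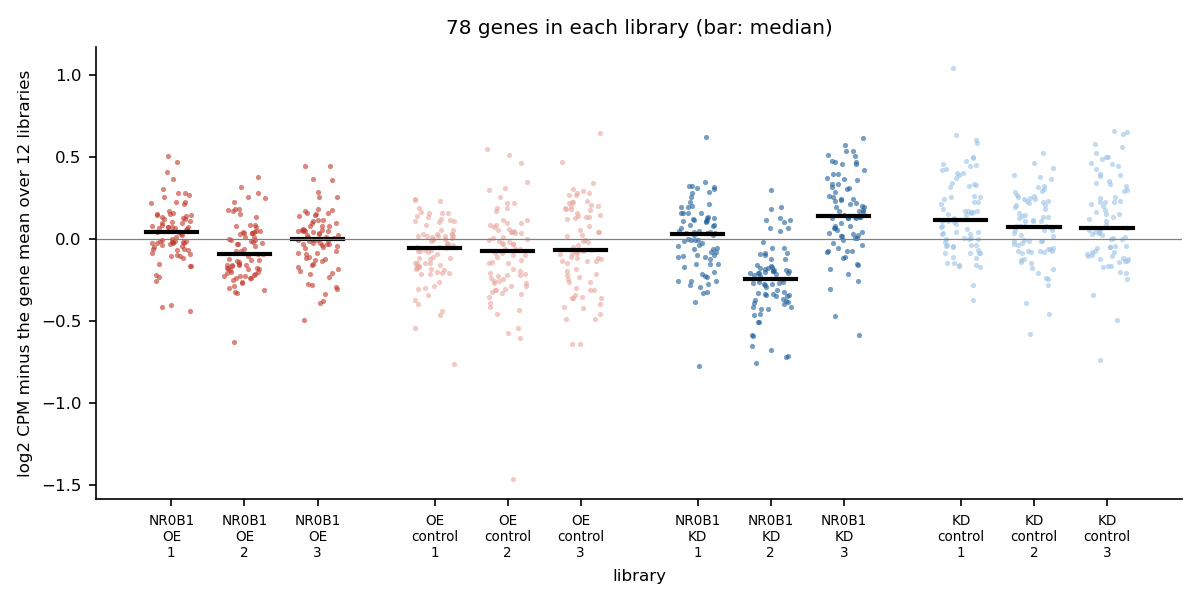
Each point is 1 of 78 genes, as log2 CPM minus that gene's mean over the 12 libraries, and bars are the median per library, with each manipulated group left of its control. NR0B1 KD 2 has the lowest median, -0.245, and NR0B1 KD 3 the highest, 0.141.

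With NR0B1 overexpression, few members changed. All adjusted p-values are from edgeR's quasi-likelihood test, adjusted by Benjamini-Hochberg over the 11908 genes, and a call means an adjusted p below 0.05. Of 78 members 2 rose and 0 fell, both of them of the large subunit, or 2.56% of members against 18.1% of all genes tested (9.87% higher and 8.2% lower). At an unadjusted p below 0.05 there were 10 of 78 members, against 4120 of 11908 genes. The median log2 fold change was 0.047 for the members and -0.031 for all genes, and 43 of 78 were positive. The members' median was 0.016 without NR0B1 OE 1, 0.018 without OE control 2 and 0.088 without NR0B1 OE 2. Libraries of the groups did not overlap for 15 of 78 members that were higher and 6 of 78 that were lower. Of all genes, 21.6% were higher and 21.9% lower without overlap, 43.5% in either direction. The 26 small-subunit members had 0 calls with edgeR, 3 at an unadjusted p below 0.05, and a median of 0.047, and the 51 large-subunit members had a median of 0.055. The count moved when single libraries were left out. It was 1 without NR0B1 OE 1, NR0B1 OE 2, NR0B1 OE 3, OE control 2 or OE control 3. It was 7 without OE control 1, 7 without NR0B1 KD 2 and 5 without NR0B1 KD 3. Without both libraries that stood apart it was 16, with 10 higher and 6 lower, against 37.5% of all genes under that setting.

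MRPL27 had the clearest rise. Its protein is the mitochondrial form of bacterial L27, whose end reaches the peptidyl transferase centre in bacteria, and its gene lies at chr17:50367857-50373214 on the minus strand (GENCODE 29, GRCh38). It had 56.4, 52.9 and 54.6 CPM in NR0B1 OE libraries, against 32.8, 32.4 and 33.2 CPM in OE control libraries. All 3 NR0B1 OE libraries lay above all 3 controls, and the log2 fold change was 0.74 (SE 0.12, adjusted p = 0.00362).

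The rise of MRPL27 lay in 1 transcript. ENST00000225969 has 4 exons, and ENST00000442592 shares its first exons but keeps the last intron, 1733 bases at chr17:50368299-50370031, within its exon 3. Both are annotated as protein-coding, and no other annotated gene overlaps that intron. The intron-keeping transcript had 25.6, 26.0 and 24.7 CPM in NR0B1 OE libraries, against 5.56, 5.90 and 5.74 CPM in OE control libraries. The spliced transcript had 29.6, 25.8 and 25.4 CPM in NR0B1 OE libraries, against 22.9, 24.3 and 25.1 CPM in OE control libraries. For the intron-keeping transcript the groups were far apart, and for the spliced transcript the gap between the groups was smaller than their spread. In FPKM, which corrects for its greater length, the intron-keeping transcript made 20.4% of the gene with NR0B1 OE and 5.87% in the OE control. With that transcript left out of the gene's count, the log2 fold change was 0.11 (adjusted p = 0.584) and the call was lost. This check was chosen after the transcript values were seen. The counts divide reads between overlapping transcripts by estimate.

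In the knockdown the pattern of both transcripts was another one. The spliced transcript of MRPL27 had 39.7, 31.1 and 42.1 CPM in NR0B1 KD libraries, against 29, 24.4 and 27.2 CPM in KD control libraries, without overlap. The intron-keeping transcript had 8.62, 6.45 and 9.73 CPM in NR0B1 KD libraries, against 7.39, 7.97 and 7.64 CPM in KD control libraries, with overlap. The whole gene had 51.7, 40.9 and 56.8 CPM in NR0B1 KD libraries, against 38.0, 35.9 and 35.9 CPM in KD control libraries (log2 fold change 0.44, SE 0.12, adjusted p = 0.021), and 0.52 (adjusted p = 0.0136) without the intron-keeping transcript. MRPL27 was thus called higher in both arms. The difference between the arms was 0.29 and not called (adjusted p = 0.219). It was also not called, but of the other sign, without the intron-keeping transcript (-0.41, adjusted p = 0.112). Its knockdown call was lost without NR0B1 KD 1 (adjusted p = 0.059), NR0B1 KD 3 (0.0515), KD control 1 (0.0606), KD control 2 (0.0756) or KD control 3 (0.0798).

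**Figure D3:**
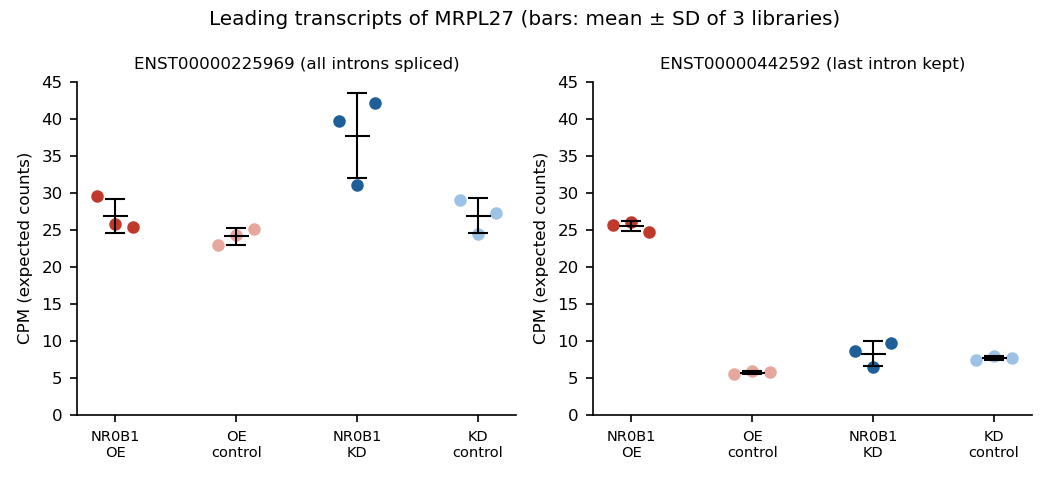
CPM of the spliced (left) and intron-keeping (right) transcript of MRPL27 per library, with mean ± SD of 3 libraries. The intron-keeping transcript stands at 24.7 to 26.0 CPM in NR0B1 OE libraries and at 5.56 to 9.73 CPM in the other 9, while the spliced one is highest in NR0B1 KD libraries.

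MRPL42, a mitochondria-specific protein of the large subunit, was the other call with overexpression. It had 101, 101 and 111 CPM in NR0B1 OE libraries, against 87.4, 74.3 and 79.7 CPM in OE control libraries, without overlap (log2 fold change 0.38, SE 0.10, adjusted p = 0.0311). Its call was lost without NR0B1 OE 1 (adjusted p = 0.0624), NR0B1 OE 2 (0.0695), NR0B1 OE 3 (0.108), OE control 2 (0.114) or OE control 3 (0.0912). In the knockdown its log2 fold change was -0.00179 (adjusted p = 0.993). The largest values that did not pass with overexpression were 0.86 for MRPL1 (SE 0.45, adjusted p = 0.195) and -0.53 for MRPL2 (SE 0.22, adjusted p = 0.107).

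In the knockdown, 9 members fell and 2 rose. These 11 were 14.1% of members, against 23.9% of all genes tested (12.4% higher and 11.5% lower). An unadjusted p below 0.05 was reached by 16 of 78 members, against 4491 of 11908 genes. The median log2 fold change was -0.096 for the members and 0.028 for all genes, and 51 of 78 were negative. The members' median was -0.162 without NR0B1 KD 1, -0.023 without NR0B1 KD 2 and -0.193 without NR0B1 KD 3. Libraries did not overlap for 20 of 78 members that were lower and 3 of 78 that were higher. Of all genes, 20.6% were lower and 20.2% higher without overlap, 40.9% in either direction. Of the 26 small-subunit members 4 fell and 0 rose, with a median of -0.057. Of the 51 large-subunit members 5 fell and 2 rose, with a median of -0.135. The count was 7 without NR0B1 KD 1, 7 without KD control 1, 6 without KD control 2 and 4 without KD control 3. Without both libraries that stood apart it was 14, with 6 higher and 8 lower, against 37.7% of all genes.

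MRPS31 had the largest fall among the members that were called. Its protein is a mitochondria-specific part of the small subunit, and its gene lies at chr13:40729135-40771173 on the minus strand. It had 14.5, 14.1 and 10.7 CPM in NR0B1 KD libraries, against 24.1, 23.1 and 25.3 CPM in KD control libraries (log2 fold change -0.88, SE 0.16, adjusted p = 0.00282). In the other arm it had 15.1, 13.9 and 16.2 CPM in NR0B1 OE libraries, against 13.2, 13.2 and 16.3 CPM in OE control libraries. The KD control libraries thus stood above the other 9, and the groups of the overexpression arm overlapped. MRPS31 has 4 pseudogenes of its name, with which the counting may have shared reads.

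MRPS18A fell next in size. It is a paralogue, with MRPS18B and MRPS18C, of bacterial S18, and its gene lies at chr6:43671303-43687791 on the minus strand. It had 13.1, 18.9 and 18.8 CPM in NR0B1 KD libraries, against 31.7, 26.7 and 29.3 CPM in KD control libraries, without overlap (log2 fold change -0.79, SE 0.15, adjusted p = 0.00485). Its values were 22.2, 23.2 and 22.9 CPM in NR0B1 OE libraries, against 25.1, 21.5 and 21.9 CPM in OE control libraries, which overlapped. Of its paralogues, MRPS18B had 55.9, 63.7 and 71.1 CPM in NR0B1 KD libraries, against 76.1, 83.5 and 81.3 CPM in KD control libraries. These groups did not overlap either, but its log2 fold change of -0.34 (SE 0.12) did not pass (adjusted p = 0.0684), and passed without OE control 1 (0.036) or NR0B1 KD 3 (0.0351). MRPS18C, the least abundant of the paralogues, had 9.59, 9.51 and 11.3 CPM in NR0B1 KD libraries, against 15.7, 10.1 and 11.8 CPM in KD control libraries, with overlap (log2 fold change -0.31, adjusted p = 0.306).

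MRPL47 and MRPS10 have bacterial counterparts. MRPL47, the mitochondrial form of L29, which lies at the exit of the peptide tunnel, had 15, 14 and 18.3 CPM in NR0B1 KD libraries, against 25.4, 22.5 and 28.8 CPM in KD control libraries (log2 fold change -0.70, SE 0.16, adjusted p = 0.00944). It had 20.4, 16.8 and 18.9 CPM in NR0B1 OE libraries, against 16.5, 13.5 and 14.8 CPM in OE control libraries. The knockdown groups did not overlap, and the overexpression groups only just did not, with a log2 fold change of 0.33 that did not pass (adjusted p = 0.164). MRPS10, a protein of the head of the small subunit, had 54.2, 52.5 and 58.7 CPM in NR0B1 KD libraries, against 79.8, 87.5 and 89.7 CPM in KD control libraries (log2 fold change -0.64, SE 0.12, adjusted p = 0.00426). It had 60.9, 56.7 and 62.3 CPM in NR0B1 OE libraries, against 68.3, 49.8 and 56.0 CPM in OE control libraries. As with MRPS31, the KD control libraries were the ones that stood above the rest. MRPL47 lies at chr3:179588285-179604654 and MRPS10 at chr6:42206801-42217865, both on the minus strand. MRPL47 shares exon sequence with ACTL6A on the opposite strand, and MRPS10 has 2 named pseudogenes.

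These 4 members were called in the knockdown under all 20 other settings, single libraries left out included. Every one of these settings used KD control libraries as the reference. MRPS31, MRPS10 and MRPL47 were also called lower in the OE control than in the KD control, and MRPS18A was not called there. The promoters of all 4 are shown because their knockdown call held under every setting. Each is the RefSeq sequence from 250 bases before to 50 bases after the start of transcription (GRCh38.p14), 5′ to 3′ on the gene's strand: chr13:40771141-40771440 for MRPS31, chr6:42217812-42218111 for MRPS10, chr6:43687742-43688041 for MRPS18A and chr3:179604589-179604888 for MRPL47. Capitals mark matches, on either strand, to an ETS core (CCGGAAG) or a YY1 motif (AAGATGGC).
MRPS31: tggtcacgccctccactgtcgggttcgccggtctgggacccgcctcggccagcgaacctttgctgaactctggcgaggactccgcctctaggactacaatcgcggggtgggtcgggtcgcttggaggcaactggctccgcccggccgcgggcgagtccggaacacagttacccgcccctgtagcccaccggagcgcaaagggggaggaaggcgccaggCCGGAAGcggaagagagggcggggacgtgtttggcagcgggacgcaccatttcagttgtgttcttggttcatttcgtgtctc
MRPS10: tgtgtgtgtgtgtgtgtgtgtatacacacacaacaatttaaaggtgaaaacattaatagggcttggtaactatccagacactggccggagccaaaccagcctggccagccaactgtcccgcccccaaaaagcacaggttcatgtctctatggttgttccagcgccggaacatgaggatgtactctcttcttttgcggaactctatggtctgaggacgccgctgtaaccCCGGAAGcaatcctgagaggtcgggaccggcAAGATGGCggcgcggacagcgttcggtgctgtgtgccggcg
MRPS18A: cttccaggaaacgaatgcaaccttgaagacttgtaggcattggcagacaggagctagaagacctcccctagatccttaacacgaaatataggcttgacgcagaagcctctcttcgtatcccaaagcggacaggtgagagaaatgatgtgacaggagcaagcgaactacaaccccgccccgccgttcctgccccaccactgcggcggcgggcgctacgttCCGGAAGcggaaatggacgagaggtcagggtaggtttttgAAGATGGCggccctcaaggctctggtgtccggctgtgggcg
MRPL47: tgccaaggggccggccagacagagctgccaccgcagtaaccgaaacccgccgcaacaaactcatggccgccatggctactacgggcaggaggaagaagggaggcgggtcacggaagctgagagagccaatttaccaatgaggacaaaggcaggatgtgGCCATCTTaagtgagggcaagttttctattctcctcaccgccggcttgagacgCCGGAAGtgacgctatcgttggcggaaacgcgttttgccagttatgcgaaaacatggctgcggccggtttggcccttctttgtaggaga
All 4 hold 1 ETS core, and all but MRPS31 hold 1 YY1 match, which reads on the opposite strand in MRPL47.

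Both motifs were frequent among the members. RefSeq promoters were matched for 69 of 78 members. The ETS core was present in 29 of these 69, or 42.0%, against 20.2% of the promoters of 9421 genes tested and 10.7% of all 27305 promoters of the same length. The YY1 motif was present in 20 members, or 29%, against 5.72% of genes tested and 3.03% of all promoters. Most of these YY1 matches lay after the start of transcription, from position 7 in MRPL38 to position 36 in MRPL22, and the others before it. The motif contains the letters ATG, and its overlap with start codons was not tested. A motif of NRF1, a regulator of nuclear genes for mitochondrial proteins, was found in 8 members, 11.6% against 12.2% of genes tested and 6.28% of all promoters. The E-box CACGTG was found in 6 members, 8.7% against 10.4% and 7.43%. Both strands were searched, 8 members held both an ETS core and a YY1 match, and in 0 members did these overlap. A match is a description of the letters and no site of binding.

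The motifs did not divide the responses cleanly. Of the 29 members with an ETS core 5 fell and 1 rose in the knockdown, with a median log2 fold change of -0.21, and of the 40 without it 3 fell and 1 rose, with a median of -0.04. Of the 20 members with a YY1 match 4 fell and 0 rose, with a median of -0.03, and of the 49 without it 4 fell and 2 rose, with a median of -0.11. The difference between these groups of members was not tested.

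The other 5 members that fell depended more on single libraries. MRPL13, of the large subunit, had 17.9, 13.7 and 19.4 CPM in NR0B1 KD libraries, against 24.3, 23.7 and 29.6 CPM in KD control libraries, without overlap (log2 fold change -0.60, adjusted p = 0.017, and 0.0816 without KD control 3). MRPS17, a small-subunit protein that binds ribosomal RNA, had 23.7, 15.9 and 26.2 CPM in NR0B1 KD libraries, against 29.7, 30.7 and 37.2 CPM in KD control libraries, also without overlap (log2 fold change -0.57, adjusted p = 0.0418). Its call was lost without any 1 of 10 libraries, at an adjusted p of 0.0526 to 0.163. MRPS23, of the small subunit, had 36.1, 34.7 and 45.5 CPM in NR0B1 KD libraries, against 59.2, 51.1 and 57.9 CPM in KD control libraries (log2 fold change -0.53, adjusted p = 0.0152). Its groups did not overlap, and the call was lost without NR0B1 KD 1 (adjusted p = 0.0516), KD control 1 (0.0561) or KD control 3 (0.0583). With overexpression it was at -0.19 (adjusted p = 0.333), and at 0.50 (adjusted p = 0.0246) once an assembled transcript of its symbol was counted with it.

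MRPL49 and MRPS30 are mitochondria-specific proteins of the large subunit. MRPL49 had 84.6, 111 and 82.7 CPM in NR0B1 KD libraries, against 116, 125 and 151 CPM in KD control libraries (log2 fold change -0.50, adjusted p = 0.0302). MRPS30 had 37.7, 31.0 and 37.2 CPM in NR0B1 KD libraries, against 46.8, 45.6 and 44.3 CPM in KD control libraries (log2 fold change -0.37, adjusted p = 0.0376). Neither pair of groups overlapped. The MRPL49 call was lost without NR0B1 KD 1 (adjusted p = 0.0958), NR0B1 KD 3 (0.0776), KD control 2 (0.0529) or KD control 3 (0.112). The MRPS30 call was lost without any 1 of 7 libraries, at an adjusted p of 0.0506 to 0.102. MRPL49 shares exon sequence with FAU and SYVN1 on the opposite strand.

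MRPL17, beside MRPL27, rose in the knockdown. Its protein lies near the peptide exit of the large subunit, as in bacteria. It had 37.6, 42.6 and 64.3 CPM in NR0B1 KD libraries, against 35.6, 28.9 and 25.9 CPM in KD control libraries, without overlap (log2 fold change 0.68, SE 0.19, adjusted p = 0.0261). NR0B1 KD 3 was far above the other libraries of its group, and the call was lost without it (adjusted p = 0.0641), without KD control 2 (0.0838) and without KD control 3 (0.112). It was also lost with limma on FPKM (0.0814 and 0.082 with a pseudocount of 1 and 0.1), with the 6 libraries of the arm only (0.0929) and with a replicate block (0.0505). In the overexpression arm MRPL17 had 55.6, 52.5 and 52.7 CPM in NR0B1 OE libraries, against 41.0, 48.7 and 49.7 CPM in OE control libraries (log2 fold change 0.21, adjusted p = 0.473). The largest falls that did not pass in the knockdown were -0.56 for MRPL36 (adjusted p = 0.0801) and -0.49 for MRPL3 (adjusted p = 0.0813).

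**Figure D4:**
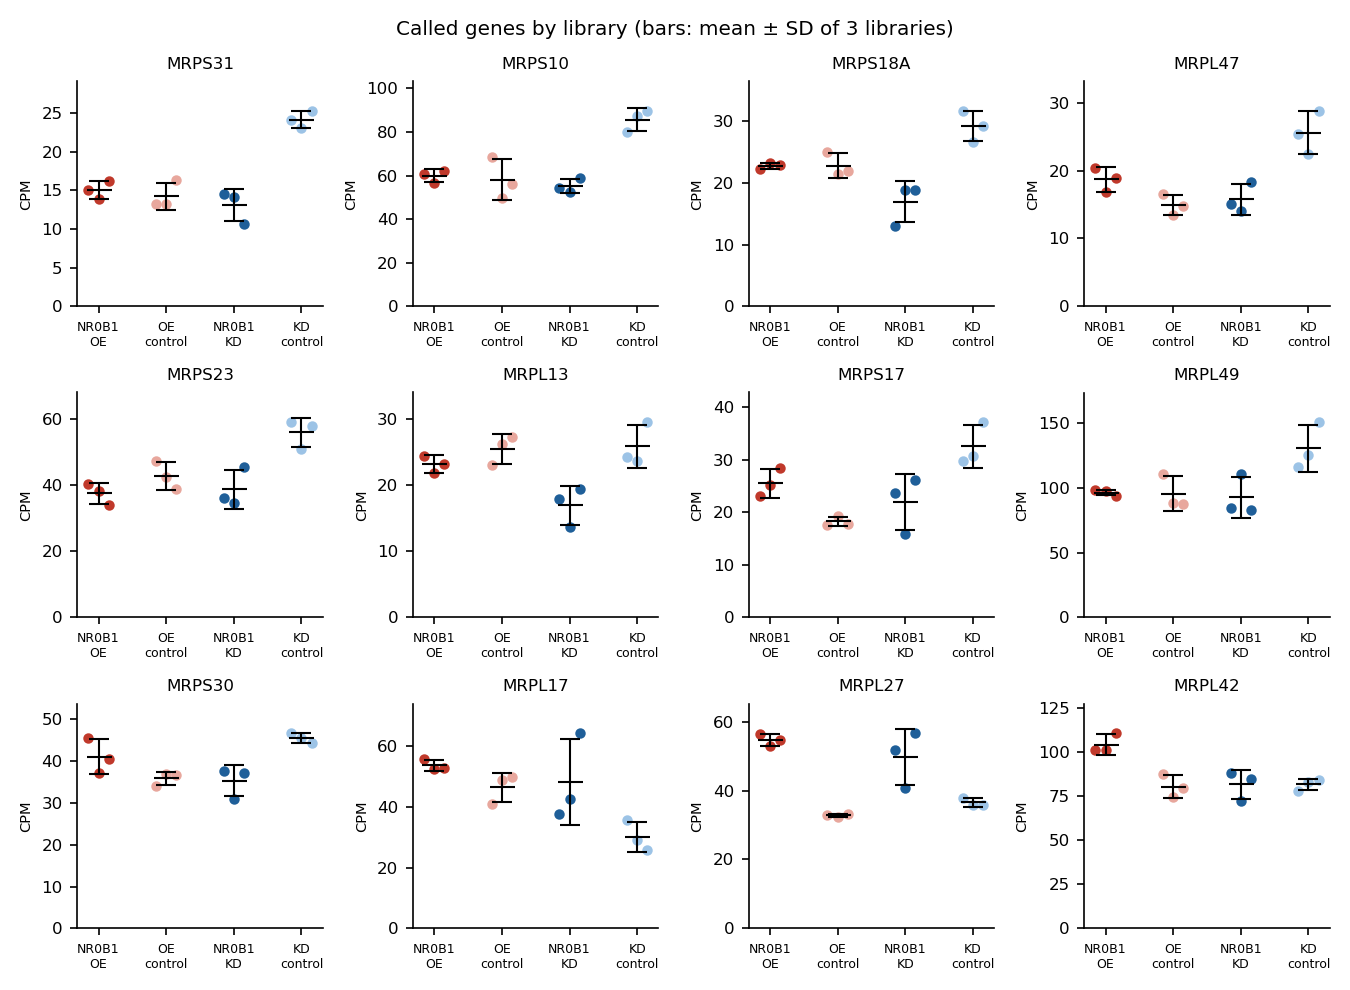
CPM per library of the 12 members called in either arm, with mean ± SD of 3 libraries, each manipulated group left of its control. For MRPS31, MRPS10, MRPS18A, MRPL47, MRPS23, MRPS17 and MRPL49 the 3 KD control libraries lie above the other 9.

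The response to overexpression minus the response to knockdown, tested as an interaction, passed for 7 members. All 7 were positive, 8.97% of members against 25.6% of all genes tested, of which 13.1% higher and 12.6% lower. At an unadjusted p below 0.05 there were 17 of 78 members, against 4698 of 11908 genes. The median of this difference was 0.185 for the members and -0.061 for all genes, and 52 of 78 were positive. MRPL47 (1.02, SE 0.22, adjusted p = 0.00705), MRPS31 (0.96, SE 0.22, adjusted p = 0.00918), MRPS17 (1.05, SE 0.26, adjusted p = 0.0127) and MRPS10 (0.68, adjusted p = 0.0145) had the smallest adjusted p. MRPS18A, MRPS30 and MRPL3 made up the count. MRPS17 had 23, 25.1 and 28.4 CPM in NR0B1 OE libraries, against 17.6, 19.3 and 17.8 CPM in OE control libraries, without overlap, though its log2 fold change of 0.48 did not pass there (adjusted p = 0.0839, and 0.0223 without NR0B1 KD 2). The count was 13 without OE control 1, 13 without NR0B1 KD 3 and 4 without KD control 1. The median was 0.295 without NR0B1 KD 3. Without both libraries that stood apart the count was 18, with 12 positive and 6 negative, against 38.5% of all genes, and the median was 0.055.

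**Figure D5:**
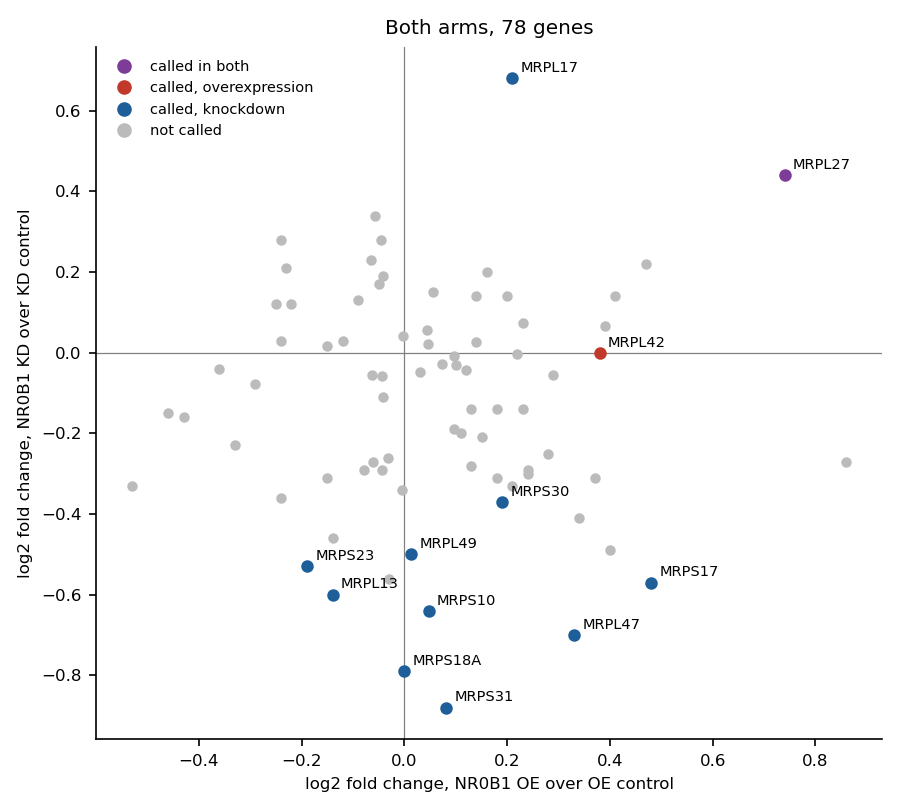
Log2 fold change of each of the 78 genes with NR0B1 OE over its control (horizontal) and NR0B1 KD over its control (vertical), with called genes coloured and named. MRPL27 is the 1 gene called in both arms, at 0.74 and 0.44, and the 9 genes that fell in the knockdown lie between -0.19 and 0.48 on the horizontal axis.

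The control groups differed from each other in more members than either arm did. OE control minus KD control gave 17 calls, 1 higher and 16 lower in the OE control, or 21.8% of members against 33.4% of all genes tested (17.2% higher and 16.1% lower). The median log2 difference was -0.17 for the members and 0.01 for all genes. At an unadjusted p below 0.05 there were 27 of 78 members, against 5345 of 11908 genes. The smallest adjusted p belonged to MRPL47 (-0.77, adjusted p = 0.00414), MRPS31 (-0.76, adjusted p = 0.00427), MRPL30 (-0.79, adjusted p = 0.0056) and MRPS10 (-0.56, adjusted p = 0.00576). MRPL30, a large-subunit protein, had 37.1, 25.7 and 28.4 CPM in OE control libraries, against 53.3, 51.2 and 53.5 CPM in KD control libraries, without overlap. MRPL17 was the member higher in the OE control (0.63, adjusted p = 0.0276). Of the 11 members called in the knockdown, 8 were also called between the controls, each with the same sign in both. This comparison, the knockdown comparison and the difference of the arms all use the KD control libraries, so the values of a member in them are not independent. MRPS31, for example, was at -0.88 in the knockdown, 0.96 in the difference of the arms and -0.76 between the controls. The count was 8 without OE control 2, OE control 3 or KD control 3, and 34 without both libraries that stood apart, with 8 higher and 26 lower in the OE control, against 47.5% of all genes.

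Several members share a start region with another gene. A protein-coding gene on the opposite strand starts within 1000 bases of 19 of 78 members, 24.4%, against 11.8% of 11878 protein-coding genes tested. MRPS11 and MRPL46, of opposite subunits, start 34 bases from each other, and neither was called in either arm: MRPS11 was at 0.11 and -0.20 in the overexpression and knockdown arms, and MRPL46 at 0.13 and -0.14. EME1, a subunit of a DNA repair nuclease, starts 6 bases from MRPL27. It was at 0.40 with overexpression (adjusted p = 0.356) and rose by 1.45 in the knockdown (adjusted p = 0.00587). TWNK, the mitochondrial DNA helicase, overlaps the start of MRPL43 and rose by 0.98 with overexpression (adjusted p = 0.0092), with MRPL43 itself not called. PSMA2, beside MRPL32, was at -0.41 with overexpression (adjusted p = 0.0377), and IGHMBP2, beside MRPL21, was at -0.44 in the knockdown (adjusted p = 0.0281). Both were called, while MRPL32 and MRPL21 were called in neither arm. NDUFB5, a respiratory complex I subunit 36 bases from MRPL47, was at -0.16 in both arms and was not called.

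Genes that build or serve the mitochondrial ribosome were compared as lists. Of 26 tested assembly and ribosomal RNA factors 3 rose and 0 fell with overexpression (11.5% called, against 18.1% of all genes, median log2 fold change 0.20). In the knockdown 1 rose and 3 fell (15.4% called, against 23.9% of all genes, median -0.046). Both shares were below those of all genes. GTPBP10, a GTPase of large-subunit assembly, had 36.4, 33.9 and 34.1 CPM in NR0B1 OE libraries, against 25.6, 21.6 and 19.9 CPM in OE control libraries (log2 fold change 0.64, adjusted p = 0.00716). It had 23.8, 28.3 and 27.4 CPM in NR0B1 KD libraries, against 54.1, 53.5 and 58.5 CPM in KD control libraries (log2 fold change -1.06, adjusted p = 0.000359). Neither pair overlapped. MRM2, a methyltransferase of the mitochondrial large ribosomal RNA, rose by 0.81 (adjusted p = 0.02) and DDX28, an RNA helicase of large-subunit assembly, by 0.97 (adjusted p = 0.0202) with overexpression. In the knockdown METTL15, a methyltransferase of the small ribosomal RNA, fell by 0.67 (adjusted p = 0.0124), MTERF3 fell by 0.61 (adjusted p = 0.0332), and MALSU1, a large-subunit assembly factor, rose by 0.73 (adjusted p = 0.0243).

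Of 26 mitochondrial translation and expression factors, 4 rose and 1 fell with overexpression (19.2% called, close to the 18.1% of all genes, median 0.203). In the knockdown 1 rose and 3 fell (15.4%, below the 23.9% of all genes, median -0.064). With overexpression GUF1, an elongation factor, rose by 0.66 (adjusted p = 0.0071), TRMT10C, a subunit of mitochondrial RNase P, by 1.16 (adjusted p = 0.00861) and TFAM, which packages mitochondrial DNA, by 0.60 (adjusted p = 0.0197). C12orf65, a ribosome rescue factor, fell by 0.91 (adjusted p = 0.00677). In the knockdown MTIF2, the initiation factor, fell by 0.54 (adjusted p = 0.0135), TFB2M, a transcription factor of mitochondrial DNA, fell by 0.78 (adjusted p = 0.0415), GFM2, a recycling factor, fell by 0.32 (adjusted p = 0.0495) and MTFMT, which formylates the initiator tRNA, rose by 0.72 (adjusted p = 0.0148). Of 17 mitochondrial tRNA synthetases 2 rose with overexpression, MARS2 by 1.27 (adjusted p = 0.0127) and YARS2 by 0.62 (adjusted p = 0.0256), and 1 fell in the knockdown, HARS2, by 0.45 (adjusted p = 0.0196). These were 11.8% and 5.88% of the list, below the shares of all genes. Of the 5 tested mitoribosomal proteins that carry other symbols, such as DAP3, 0 were called in either arm and 0 had an unadjusted p below 0.05 (medians -0.038 and -0.066).

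The products and partners of mitochondrial translation had other median changes than the members in the overexpression arm. Of the 13 protein genes of mitochondrial DNA 2 rose, MT-ATP8 by 0.94 (adjusted p = 0.0115) and MT-ND6 by 1.06 (adjusted p = 0.0166), 15.4% of the list against 18.1% of all genes, with a median of 0.382. Of 60 nuclear respiratory chain subunits 1 rose and 18 fell (31.7% called, median -0.342), among them COX6A1 by 0.49 (adjusted p = 0.00417), SDHA by 0.43 (adjusted p = 0.0161) and UQCRQ by 0.79 (adjusted p = 0.0174), while NDUFA9 rose by 0.49 (adjusted p = 0.0131). Of 79 cytosolic ribosomal proteins 0 rose and 10 fell (12.7% called, median -0.284), led by RPS19 with a log2 fold change of -0.61 (adjusted p = 0.00876). In the knockdown these lists had medians of 0.199, 0.037 and 0.066, with 0, 4 and 5 calls, or 0%, 6.67% and 6.33%, all below 23.9%. Between the controls, 23 respiratory chain subunits were higher and 1 lower in the OE control (40% called, against 33.4% of all genes, median 0.331). The mitochondrial DNA genes and cytosolic ribosomal proteins had medians of 0.164 and 0.099 there, with 7.69% and 7.59% called. The overexpression comparison uses the same OE control libraries, so these values are not independent of it. The members' own median was 0.047 with overexpression and -0.096 in the knockdown. The difference between lists was not tested.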

How the data were processed

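The authors deposited expected counts and FPKM per transcript for each of 12 libraries, per the file headers. The tools were RSEM, StringTie 1.3.1, Bowtie2 2.2.8, HISAT2 2.0.5 and fastp, per the submitters' processing notes, which name mouse builds although the identifiers are human. The sources used here give neither strandedness nor annotation release, so reads of a gene and of its opposite-strand neighbour cannot be told apart (29 members share exon sequence with one), and reads may be shared with pseudogenes (34 members have one by name). Libraries were made from 3 µg of RNA with an NEB kit, per the labels' protocols.

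Values of 278 Ensembl rows were summed into the 78 genes, and expected counts were rounded. Assembled transcripts (29 rows of members) were left out of gene values. Genes at 1 FPKM or more in 3 libraries (11908) were fitted with edgeR 4.0.16 in R 4.3.3 (glmQLFit, robust, TMM scaling) as 4 group means with 8 residual degrees of freedom, and called at a Benjamini-Hochberg adjusted p below 0.05. SE is the absolute log2 fold change over the square root of F. CPM are scaled by TMM. Alternatives were DESeq2 1.42.0, limma 3.58.1 on log2(FPKM + 1) and log2(FPKM + 0.1), no filter on low values, the 6 libraries of a comparison only, assembled transcripts, a replicate block and single libraries left out. Leaving out both libraries that stood apart, and 1 transcript of MRPL27, were added after the data were seen. The fit was also run on simulated counts, drawn from each gene's mean and the fit's own estimate of its spread. No outlying library was simulated, so that run cannot show how the libraries that stood apart act on the calls. Coordinates are from GENCODE 29 (GRCh38) and promoters from RefSeq.

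The members and lists were chosen with earlier results of these data known. Members named with values are the called members with the smallest adjusted p per arm and direction, those called in both arms, leading members of the difference of the arms and of the controls, the highest and lowest by FPKM, the MRPS18 paralogues, MRPS36 and leading genes of each list. MRPS5, MRPL39, MRPL19, MRPL33, MRPL12, MRPL2, MRPL36, the neighbouring genes and the remaining called members were added after their values were seen. A further leukocyte marker is not reported here.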

Additional observations from a re-analysis of the deposited data

Results flagged for a closer look

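The responses of 7 members differed between the arms by the interaction test (edgeR's quasi-likelihood test, Benjamini-Hochberg adjusted). The overexpression response exceeded the knockdown response by 1.02 log2 units for MRPL47, 0.96 for MRPS31, 1.05 for MRPS17, 0.68 for MRPS10, 0.79 for MRPS18A, 0.56 for MRPS30 (adjusted p = 0.026) and 0.89 for MRPL3 (adjusted p = 0.0326). MRPL3 had 126, 126 and 135 CPM in NR0B1 OE libraries, against 103, 97.4 and 93.9 CPM in OE control libraries. It had 118, 70.5 and 136 CPM in NR0B1 KD libraries, against 149, 140 and 168 CPM in KD control libraries. Neither pair overlapped, and neither arm alone passed (adjusted p = 0.163 and 0.0813). With overexpression MRPL3 passed with the 6 libraries of the arm only (0.0161), without NR0B1 KD 2 (0.0113) and without both libraries that stood apart (0.00785), and in the knockdown it passed without NR0B1 KD 3 (0.0214). The MRPL3 difference was lost without NR0B1 OE 1 (adjusted p = 0.0566), NR0B1 OE 2 (0.0585), NR0B1 OE 3 (0.0705), OE control 2 (0.0659), OE control 3 (0.0686), KD control 1 (0.0572) or KD control 3 (0.0788). The MRPS18A difference (adjusted p = 0.0223) was lost without OE control 2 (0.0555), OE control 3 (0.0511) or KD control 1 (0.0509), and that of MRPS30 without NR0B1 OE 1 (0.0671), NR0B1 OE 3 (0.0507), KD control 1 (0.0559) or KD control 2 (0.0522). The differences of MRPL47, MRPS31, MRPS17 and MRPS10 passed under all 19 other settings.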

How the results depend on the processing

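With overexpression, 2 members were called, against 1 with no filter on low values, 5 with the 6 libraries of the comparison only, 4 with assembled transcripts included, 16 without OE control 1 and NR0B1 KD 2 together, and 1 to 7 without 1 library. In the knockdown 11 were called, against 4 with the 6 libraries only and 4 to 13 without 1 library. For the difference of the arms 7 were called, against 15 and 14 with limma on log2(FPKM + 1) and log2(FPKM + 0.1), 18 without both libraries and 4 to 13 without 1 library, and the median of 0.185 was 0.055 without both and 0.087 to 0.295 without 1 library. Between the controls 17 were called, against 34 without both libraries and 8 to 23 without 1 library. MRPS23 changed direction with overexpression, at -0.19 (adjusted p = 0.333) as reported and 0.50 (adjusted p = 0.0246) with assembled transcripts included. Its assembled transcript stood at 2.32 ± 0.14 FPKM with NR0B1 OE and 0.15 ± 0.05 FPKM in the OE control (SD, n = 3 each). Of the named values under other settings, 1282 kept their direction, at 2 decimals, and their side of the threshold, 101 were no longer called, 36 became called and 23, of 9 results, changed direction. In 22 of these neither value was called. With overexpression MRPS23 was 0.04 with both limma settings, and MRPS36 (0.03 as reported) was -0.01 with limma on log2(FPKM + 0.1), -0.02 with the replicate block, -0.01 without both libraries and -0.22 to 0.27 without 1 library. MRPL49 was -0.04 to 0.13 and MRPS10 -0.05 to 0.18 without 1 library. In the knockdown, MRPL57 was 0.07 without both libraries and -0.13 to 0.06 without 1 library, MRPL1 -0.58 to 0.18 and MRPS36 -0.29 to 0.11. For the difference of the arms, MRPL27 was -0.07 with both limma settings and -0.41 without its intron-keeping transcript, and MRPS36 was -0.01 without both libraries and -0.17 to 0.32 without 1 library. The cause of these changes was not tested.

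Deviations of same-numbered libraries correlated at 0.197, 0.131 and 0.00837 in the overexpression arm and at -0.00643, -0.0872 and -0.0591 in the knockdown arm. Differently numbered libraries were not compared, so these values cannot decide whether replicate numbers pair the libraries. With a replicate block the counts were 2 with overexpression, 8 in the knockdown, 7 for the difference and 15 between the controls. MRPL1 was the member with the fewest counts, down to 1.69 CPM.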

Other observations

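Assembled transcripts, left out of the gene values, carried much of the FPKM of some members. By the deposited symbols they held 51.0% of the FPKM of MRPL2, as much of MRPL1 as its Ensembl transcripts (3.59 FPKM each), 35% of MRPL40, 29% of MRPS9, 23.1% of MRPL42 and 22.4% of MRPS7. The assembled transcript of MRPL45, a large-subunit protein, averaged 5.05 ± 1 FPKM with NR0B1 OE and 1.64 ± 0.35 FPKM in the OE control (SD, n = 3 each). That of MRPL14, also of the large subunit, averaged 2.80 ± 0.55 FPKM with NR0B1 OE and 0.68 ± 0.62 FPKM in the OE control. In the knockdown arm the MRPL45 transcript averaged 2.33 ± 0.48 FPKM with NR0B1 KD and 2.38 ± 0.30 FPKM in the KD control, and that of MRPL14 1.33 ± 0.60 FPKM with NR0B1 KD and 1.21 ± 0.58 FPKM in the KD control. These transcripts were picked after their values were seen, and no test was made of them. Over all genes, assembled rows held 14.79% to 15.42% of expected counts in NR0B1 OE libraries and 14.23% to 14.77% in OE control libraries, and 13.77% to 15.21% in NR0B1 KD libraries and 13.34% to 14.01% in KD control libraries. The part of unspliced or unannotated RNA in these values was not tested.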
